A study of Mus musculus with 6 samples.

Results

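Lysosomal enzymes and membrane proteins were examined in the livers of 6 Mettl14f/f mice fed a high-fat diet (HFD). The set held 38 genes, chosen by symbol, of the 21361 genes in the deposited gene table, and each of the 38 was found. Floxed Mettl14 alleles on the C57BL/6J background were shared by both groups, and the study describes the mice as males. HFD feeding began at 8 weeks of age, and after 10 weeks of HFD the mice received AAV8-TBG-Cre (n = 3) or the control vector AAV8-TBG-GFP (n = 3) by tail vein, with livers collected 8 weeks later. AAV8-TBG is an adeno-associated virus whose TBG promoter is active in hepatocytes, so the alleles of Kupffer cells, duct cells and other liver cells are not targeted by design, while whole-liver RNA holds them all. METTL14 is a subunit of the complex that writes the RNA mark N6-methyladenosine, and the comparison asks how the livers differ when its gene is targeted in hepatocytes.

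Lysosomes are acidic organelles in which hydrolases take apart proteins, glycans and lipids delivered by endocytosis, phagocytosis and autophagy. Cathepsins cut proteins, glycosidases trim sugars, lipases, sphingolipid hydrolases and their activator proteins handle lipids, and NPC1 and NPC2 hand cholesterol out of the lumen. The V-ATPase pumps in protons, LAMP proteins line the membrane, MCOLN1 releases calcium, and the transcription factor TFEB switches on many lysosomal genes through E-box elements of the CLEAR type. Hepatocytes use these pathways to turn over organelles and lipid droplets, and macrophages are known for high cathepsin and phagolysosome gene expression.

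Libraries held between 20356392 and 21010474 counts assigned to genes. Levels between livers are given as CPM, counts relative to the library size as scaled by the TMM method, and levels between genes as FPKM, which also divides by transcript length. Mettl14 itself had 124, 126 and 111 counts in the 3 livers labelled AAV8-TBG-GFP and 104, 131 and 101 in the 3 livers labelled AAV8-TBG-Cre, and 6.18 ± 0.326 against 5.07 ± 0.275 CPM (SD, n = 3). The Cre values lay below the GFP values in CPM, but the log2 fold change of -0.29 (SE 0.15) was not past the test (edgeR quasi-likelihood test, adjusted p = 0.336), so the groups below are those of the labels. Hepatocyte markers were abundant in every library (summed level of 10 markers, 84079 to 119578 CPM). Library names come in a short form (GFP replicates 1 and 2, Cre replicate 1) and a long form (GFP replicate 3, Cre replicates 2 and 3) that the labels do not explain.

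Promoter sequence is shown for members that carry an E-box, because TFEB and its relatives bind this element in lysosomal genes and because it lies before members that differed as well as members that did not. The RefSeq promoter table (build GRCm38.p6, 250 bases before to 50 bases after a start site) held 32 of the 38 members. The core CACGTG, which reads the same on both strands, was found in 9 of these 32 promoters (28.1%), against 2187 of the promoters of 27025 genes (8.09%). The longer TCACGTGA, which contains that core, was found in 4 of 32 (12.5%), against 304 of 27025 (1.12%). The full CLEAR palindrome of 10 bases, which adds a G before and a C after TCACGTGA, was found in 0 of 32, against 100 of 27025 (0.370%). Stretches of 100 bases are printed on the strand of the gene, with capitals marking TCACGTGA or, where only the core matched, CACGTG.

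Mcoln1 (chr8:3500414-3500513, plus strand): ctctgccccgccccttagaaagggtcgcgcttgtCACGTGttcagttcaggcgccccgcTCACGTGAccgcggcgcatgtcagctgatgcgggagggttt
Ctsd (chr7:142387873-142387972, minus strand): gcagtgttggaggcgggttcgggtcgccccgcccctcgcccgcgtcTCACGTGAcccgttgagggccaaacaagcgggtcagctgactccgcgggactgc
Ctsa (chr2:164833698-164833797, plus strand): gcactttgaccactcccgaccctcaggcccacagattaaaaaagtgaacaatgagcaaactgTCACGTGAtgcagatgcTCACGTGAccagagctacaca
Atp6v1a (chr16:44139338-44139437, minus strand): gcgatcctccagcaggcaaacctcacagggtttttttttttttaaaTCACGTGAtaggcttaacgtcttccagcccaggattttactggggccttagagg
Lamp1 (chr8:13159076-13159175, plus strand): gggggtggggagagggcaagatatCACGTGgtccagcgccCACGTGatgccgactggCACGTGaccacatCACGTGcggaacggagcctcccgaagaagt
Ctsl (chr13:64370671-64370770, minus strand): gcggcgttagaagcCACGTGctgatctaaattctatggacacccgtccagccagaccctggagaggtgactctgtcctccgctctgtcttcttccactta

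The Lamp1 stretch holds 4 cores within 100 bases, the Mcoln1 stretch a core and a TCACGTGA, and the Ctsa stretch a pair of TCACGTGA. For Ctsa, Atp6v1a and Ctsl the start site of the table lies inside the annotated gene, so another start of these genes is not shown. Ctsf, Gaa and Glb1 are the other members with a core. These matches describe letters in the promoter and do not show binding.

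With edgeR the lysosomal genes were called about as often as other genes, and those past the looser rule lay in both directions. By an adjusted p under 0.05 over the 13430 genes tested, 0 of 38 members were higher and 0 were lower with edgeR, against 0.484% of all genes tested that were higher and 0.447% that were lower. The smallest adjusted p among members was 0.0563, for Ctsc, and 11 members had an unadjusted p under 0.05. By the looser rule of an unadjusted p under 0.05 with a fold change of at least 1.2, 6 members were higher (Ctss, Ctsk, Laptm5, Atp6v0d2, Ctsl and Npc2) and 4 were lower (Ctsc, Ctso, Mcoln1 and Smpd1). That is 15.8% of members against 12.0% of all genes tested for the higher direction, and 10.5% against 8.41% for the lower. Both shares lie near those of all genes, so the counts themselves are no result about the set. DESeq2 called 4 of the 38 higher (Ctss, Ctsl, Npc2 and Laptm5) and 2 lower (Ctsc and Ctso) by adjusted p. Of its genes 4.81% and 2.63% were called in these directions. By the looser rule DESeq2 called 15.8% of members higher, against 9.61% of all genes, and 13.2% lower, against 6.55%. Limma on FPKM called 0 in either direction by adjusted p.

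The median log2 fold change of the 38 members was -0.06, and that of all genes tested was -0.01. Of the members, 16 had a positive and 22 a negative log2 fold change, and 31 lay under 0.5 in size. In CPM the 3 Cre livers lay above the 3 GFP livers for 7 members (18.4%, against 14.0% of all genes). They lay below the GFP livers for 8 (21.1%, against 13.0%), while 23 overlapped. Of those 8, Ctsc, Ctso and Lamp2 stayed below in FPKM, while the groups overlapped for Lamp1, Scarb2, Neu1, Smpd1 and Atp6ap1. The split of calls differed between settings. With upper quartile normalization it was 9 higher (23.7%, against 14.3% of all genes) and 2 lower (5.26%, against 5.49%). With limma on log2(FPKM + 1), which also changes the test and the filter, it was 10 higher (26.3%, against 15.5%) and 1 lower (2.63%, against 3.01%), on a scale where the median of all genes moved to 0.11. Without Cre replicate 2, 4 members were higher (10.5%, against 8.18% of all genes) and 3 lower (7.89%, against 5.86%).

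**Figure D1:**
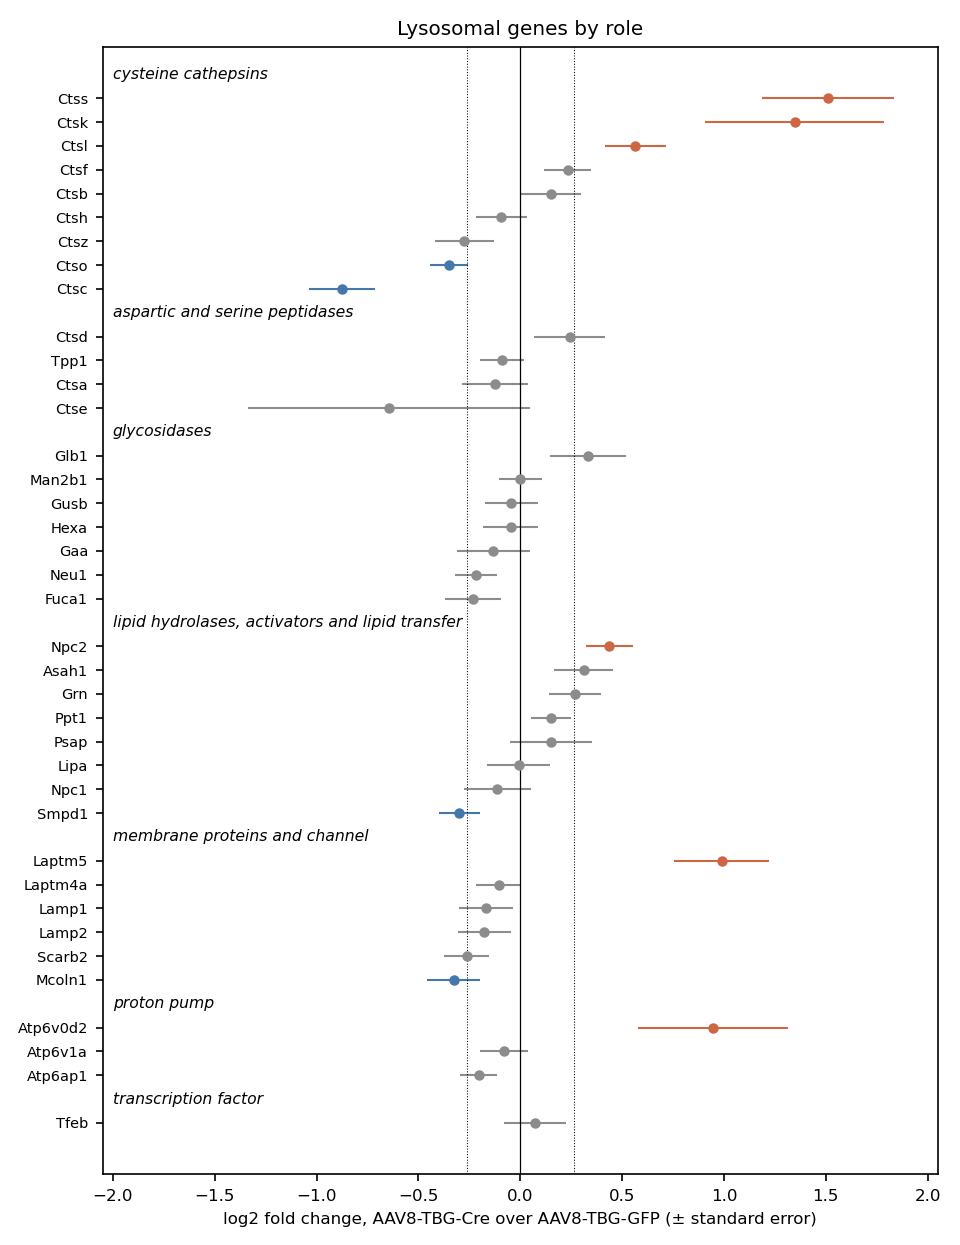
Log2 fold change of each of the 38 lysosomal genes (x axis, Cre over GFP), grouped by role and ordered within each role. Bars are standard errors derived from the F statistic of the edgeR test, with n = 3 per group. Orange points are the 6 members higher and blue points the 4 lower by the looser rule. This rule is an unadjusted p under 0.05 with a fold change of at least 1.2 (dotted lines). Grey points passed in neither direction. Of the 38 members 31 lay under 0.5 in size, while of the 9 cysteine cathepsins 3 were higher and 2 lower.

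Levels per transcript length spanned a wide range in the GFP livers. The membrane glycoprotein Lamp1 stood first (313 ± 11.3 FPKM, SD, n = 3), followed by Psap (271 ± 29.3 FPKM), the precursor of the saposin activators, and Lamp2 (264 ± 5.56 FPKM). The spreads of Psap and Lamp2 overlapped. After Ctsd came Ctsz (146 ± 18.7 FPKM), Ctsb (139 ± 7.92 FPKM), Ctsh (128 ± 12.1 FPKM) and Grn (112 ± 5.23 FPKM), each of which overlapped its neighbour in this order, while Grn lay below the spreads of Ctsz and Ctsb. Ctsd, the main aspartic protease of lysosomes, stood between Lamp2 and Ctsz at 194 ± 4.98 FPKM. These 8 members, all of at least 100 FPKM, made up 65.4% of the summed FPKM of the set, and the top 3 alone 35.4%.

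A further 25 members lay between 10 and 100 FPKM, and 5 lay under 10: Glb1 (5.21 ± 0.348), Tfeb (4.50 ± 0.415), Atp6v0d2 (1.78 ± 0.896), Ctse (0.683 ± 0.242) and Ctsk (0.387 ± 0.0709). Members that differed by the looser rule were mostly from the middle and the bottom of this order, and only Ctsl among them reached 97.6 ± 8.47 FPKM. Summed over the set, FPKM was 2414, 2295 and 2480 in the GFP livers and 2548, 3184 and 2544 in the Cre livers, which did not overlap (p = 0.1 by an exact two-sided permutation test, a floor set by 3 against 3). On the TMM scale the sums overlapped, at 6788 ± 405 against 6942 ± 232 CPM (exact two-sided permutation test, p = 0.6). The FPKM sum also gives each gene a weight by its length, so the 2 sums differ in more than the scaling of libraries.

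**Figure D2:**
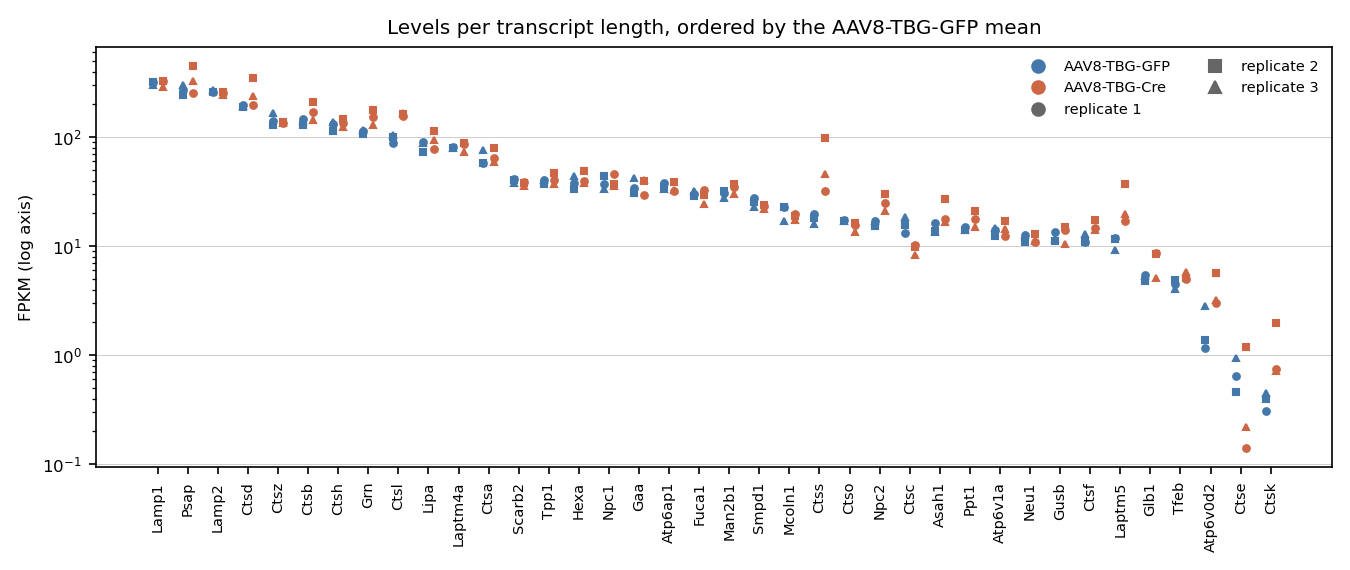
FPKM of each lysosomal gene (y axis, log scale) in the 6 livers, ordered by the mean of the GFP livers; blue marks GFP, orange marks Cre, and shapes mark replicates. Lamp1, Psap and Lamp2 lead in the GFP livers, and Ctsk closes the order. Cre replicate 2 stands above the others for many members, among them Psap, Ctsd and Ctsb as well as Ctss, Laptm5 and Ctsk. It does not for others, such as Lamp2 and Ctsc.

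The 9 cysteine cathepsins showed the widest divergence. Ctss, an endopeptidase that trims the invariant chain of MHC class II and is typical of phagocytes, was at 27.3, 25.9 and 23.3 CPM in the GFP livers and at 42.6, 113 and 62.0 CPM in the Cre livers. The groups did not overlap, and Cre replicate 2 stood far above the other Cre livers. Its log2 fold change was 1.51 (SE 0.33, adjusted p = 0.0678), and 1.03 without Cre replicate 2, where it still passed the looser rule. The summed level of 12 markers of macrophages and Kupffer cells was 329 to 380.1 CPM in the GFP livers and 528 to 816 CPM in the Cre livers, also highest in Cre replicate 2. In whole-liver RNA, more cells of a type and more RNA per cell cannot be told apart. Ctsk, the collagen-cutting cathepsin of osteoclasts, rested on few counts, 10, 13 and 15 in the GFP livers and 24, 65 and 24 in the Cre livers. In CPM these were 0.508, 0.663 and 0.785 against 1.15, 2.67 and 1.16, again with Cre replicate 2 highest. The log2 fold change of Ctsk was 1.35 (SE 0.44, adjusted p = 0.148), and it no longer passed the looser rule without Cre replicate 2 (0.81) or without GFP replicate 1 (1.19). Ctsk and Ctss lie close together on chromosome 3, at chr3:95499210-95509387 and chr3:95526786-95556405 of GRCm38.p6, with 17398 bases between them.

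Ctsl, a broad endopeptidase at a high level in liver, was at 323, 374 and 406 CPM in the GFP livers and 544, 488 and 601 CPM in the Cre livers. All 3 Cre livers were above all GFP livers, and here Cre replicate 2 was the lowest of the Cre group. Ctsl had a log2 fold change of 0.57 (SE 0.15, adjusted p = 0.0977), and it passed the looser rule under each of the 16 alternative fits, from 0.47 to 0.73. Of the 9 members with an E-box core, found among 32 promoters, Ctsl is the only one that was higher by that rule. Its annotated span is chr13:64361890-64370772.

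Ctsc, the dipeptidyl peptidase that activates granule serine proteases, went the other way. It was at 93.1, 109.8 and 140.5 CPM in the GFP livers and at 68.6, 59.2 and 59.3 CPM in the Cre livers. The 3 Cre values were close together and below every GFP value, while the GFP livers varied more among themselves. Ctsc had a log2 fold change of -0.88 (SE 0.16, adjusted p = 0.0563), within -1.01 to -0.67 over the 16 alternative fits, each of which kept it past the looser rule. Ctsc (chr7:88278024-88315861) had the smallest p of the 38 in edgeR.

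Ctso, a less studied cathepsin, was at 63.4, 62.4 and 65.1 CPM in the GFP livers and at 53.3, 48.2 and 48.2 CPM in the Cre livers. Values within each group were close, and the groups did not overlap. Between vectors the log2 fold change was -0.35 (SE 0.09, adjusted p = 0.0977), shrinking to -0.17 with limma on log2(FPKM + 1), where it lost the call. With all 6 livers the remaining cysteine cathepsins passed neither rule. Ctsb, the most abundant of them in CPM, differed by 0.15 on the log2 scale (adjusted p = 0.609), and Ctsf, at 24.4 ± 3.14 against 28.6 ± 0.583 CPM, by 0.23 (adjusted p = 0.296) with all Cre livers above the GFP livers. Ctsf passed the looser rule in the upper quartile fit (0.30), in the 3 limma fits (0.38 to 0.41) and without GFP replicate 3 (0.33). Ctsh, an aminopeptidase, and Ctsz, a carboxypeptidase, had log2 fold changes of -0.09 and -0.27, and the groups overlapped for both.

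**Figure D3:**
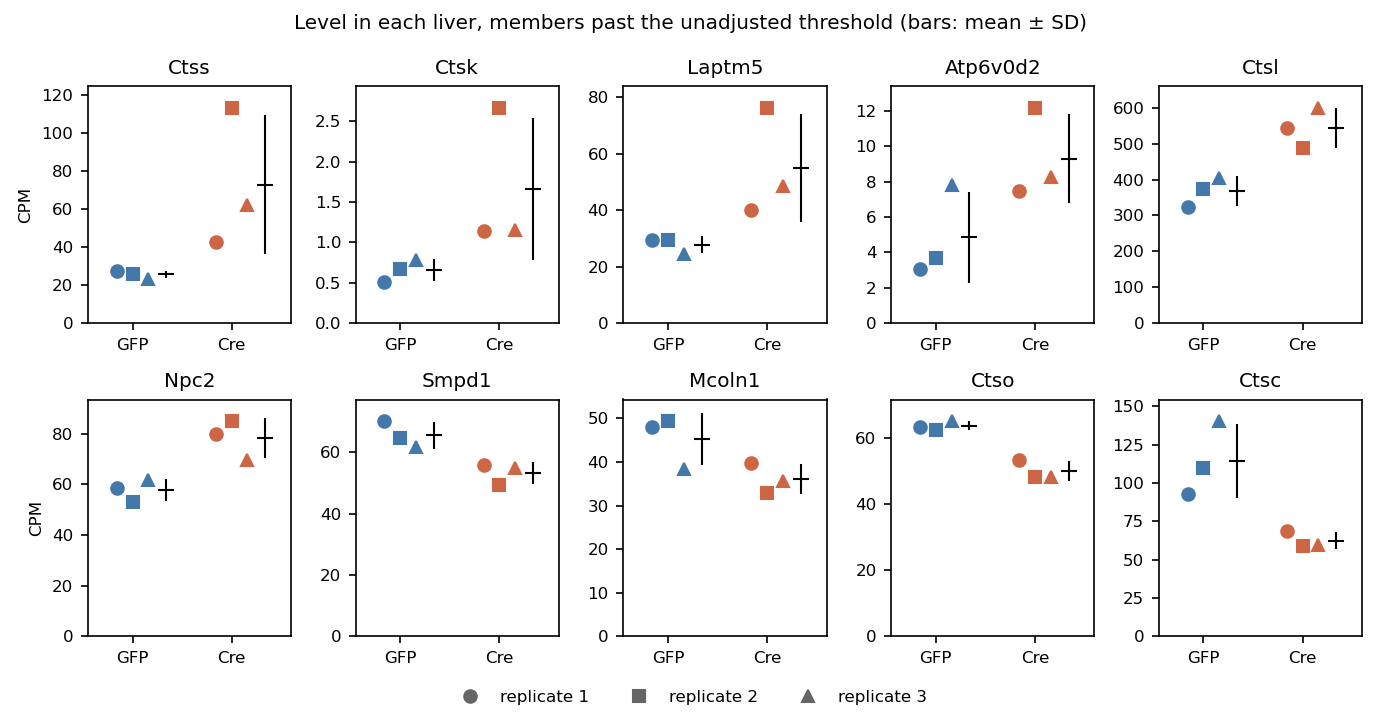
CPM (y axes, each starting at 0) of the 10 members past the unadjusted threshold in each of the 3 GFP (blue) and 3 Cre (orange) livers, with mean ± SD beside the points and one shape per replicate. For Ctss, Ctsk, Laptm5, Atp6v0d2 and Npc2 the square of Cre replicate 2 is the highest of the 6 livers; for Ctsc the 3 Cre livers lie between 59.2 and 68.6 CPM, below each GFP liver.

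With all 6 livers, none of the 4 aspartic and serine peptidases passed either rule. Ctsd was at 409, 395 and 420.2 CPM in the GFP livers and 381, 588 and 481 CPM in the Cre livers. Cre replicate 1 was the lowest and Cre replicate 2 the highest of the 6, and the log2 fold change was 0.24 (SE 0.18, adjusted p = 0.481). It was 0.39, past the looser rule, without Cre replicate 1, and 0.07 without Cre replicate 2. Ctsa, a carboxypeptidase that also protects other enzymes of the lumen, and Tpp1, a tripeptidyl peptidase, had log2 fold changes of -0.12 and -0.09, and both changed sign with limma on FPKM (0.06 and 0.08). Ctse, an aspartic protease of endosomes, was scarce, with 28, 20 and 42 counts in the GFP livers and 6, 52 and 10 in the Cre livers. Cre replicate 2 was apart from the other Cre livers, at 2.14 CPM against 0.286 and 0.481, and the log2 fold change of -0.64 (SE 0.69, adjusted p = 0.645) became -2.0, past the looser rule, without it.

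The 7 glycosidases passed neither rule either with all livers, and 5 of them had a negative log2 fold change. Neu1, the lysosomal sialidase, was at 49.8 ± 4.57 CPM in the GFP livers and 42.8 ± 1.35 CPM in the Cre livers. Its log2 fold change was -0.22 (SE 0.10, adjusted p = 0.279). The groups did not overlap in CPM but overlapped in FPKM. Glb1, the acid beta-galactosidase, had the largest value of the role, 0.33 (SE 0.19, adjusted p = 0.356), with overlapping groups. Without Cre replicate 3 it was 0.50, past the looser rule, and without Cre replicate 1 it was 0.16. Fuca1, which removes fucose, was at -0.23, and at -0.37, past the looser rule, without Cre replicate 1, and Neu1 also passed it without GFP replicate 2 (-0.29). Gaa, which breaks down lysosomal glycogen, was at -0.13. Hexa, Gusb and Man2b1 lay within 0.05 of 0, and for these the sign itself changed between settings. The summed level of the role was 527 ± 43.9 against 497 ± 5.66 CPM.

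Among the 8 genes of lipid hydrolysis, activation and transfer, Npc2 was higher and Smpd1 lower by the looser rule. Npc2, the soluble cholesterol carrier of the lumen, was at 58.6, 53.0 and 61.9 CPM in the GFP livers and 80.0, 85.1 and 69.8 CPM in the Cre livers. The groups did not overlap, and the log2 fold change was 0.44 (SE 0.12, adjusted p = 0.0975), past the looser rule in each of the 16 alternative fits. Its membrane partner Npc1 was at 214 ± 25.5 and 198 ± 35.1 CPM, with a log2 fold change of -0.11 (SE 0.16, adjusted p = 0.743).

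Smpd1, the acid sphingomyelinase, was at 70.2, 64.7 and 61.6 CPM in the GFP livers and 55.8, 49.2 and 54.7 CPM in the Cre livers. Each Cre liver lay below each GFP liver in CPM, while in FPKM the groups overlapped. For Smpd1 the log2 fold change was -0.30 (SE 0.10, adjusted p = 0.161), and the gene met the looser rule in 9 of the 16 alternative fits. The call was lost without GFP replicate 1 or Cre replicate 2 (-0.25 in each case) and with upper quartile normalization (-0.24). It was also lost with the name form as a covariate (-0.26) and in the 3 limma fits (-0.12 to -0.13). Grn, the progranulin gene, was at 281 ± 18 against 338 ± 26.9 CPM, with Cre above GFP in every pair, and Asah1, the acid ceramidase, at 35.1 ± 2.66 against 43.5 ± 7.99 CPM. Both had log2 fold changes short of the test, 0.27 (adjusted p = 0.273) and 0.31 (adjusted p = 0.269). Grn passed the looser rule in the upper quartile fit (0.34), with at least 10 counts in every library (0.29), in the 3 limma fits on FPKM (0.43 to 0.44) and without Cre replicate 3 (0.33). Asah1 passed it in the upper quartile fit (0.38), in 2 of the limma fits (0.44 and 0.46) and without Cre replicate 3 (0.40), and was at 0.15 without Cre replicate 2. Ppt1, which takes palmitate off proteins, and Psap each had a log2 fold change of 0.15 (Ppt1 passed the looser rule in the limma fits, at 0.30 to 0.32), and Lipa, the acid lipase for cholesteryl esters and triglycerides, one of -0.01 that changed sign in 8 of 16 alternative fits.

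Of the 6 membrane genes, Laptm5 stood apart. This membrane protein of blood-derived cells was at 29.6, 29.3 and 24.3 CPM in the GFP livers and 39.9, 76.4 and 48.6 CPM in the Cre livers. As with Ctss, the groups did not overlap and Cre replicate 2 was far above the others. Its log2 fold change was 0.99 (SE 0.23, adjusted p = 0.0796), and 0.67 without that liver. The related gene Laptm4a, which is broadly expressed, was at 181 ± 3.15 against 168 ± 12.4 CPM, a log2 fold change of -0.11.

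The other 5 membrane genes all had negative log2 fold changes on the TMM scale. Lamp1 was at 747, 752 and 739 CPM in the GFP livers and at 716, 623 and 652 CPM in the Cre livers, and Lamp2 at 615, 631 and 683 against 582, 538 and 587 CPM. Both were lower in every Cre liver than in every GFP liver, yet their log2 fold changes of -0.17 (SE 0.13, adjusted p = 0.524) and -0.18 (SE 0.13, adjusted p = 0.496) did not pass either rule. In FPKM Lamp1 was 313 ± 11.3 and 313 ± 22.6. Mcoln1, the calcium channel, was at 48.0, 49.4 and 38.4 against 39.8, 32.9 and 35.6 CPM. GFP replicate 3 was within the range of the Cre livers, and the log2 fold change was -0.33 (SE 0.13, adjusted p = 0.212). Mcoln1 kept the call in 7 of the 16 alternative fits. It lost the call without GFP replicate 1 (-0.29), GFP replicate 2 (-0.26), Cre replicate 2 (-0.27) or Cre replicate 3 (-0.32). The call was also lost with upper quartile normalization (-0.27), with the name form as a covariate (-0.23) and in the 3 limma fits (-0.15 in each). Scarb2, the receptor that carries beta-glucocerebrosidase to lysosomes, was just outside the fold limit of the looser rule (-0.26, adjusted p = 0.231), and inside it with DESeq2 (-0.27) or without Cre replicate 1 (-0.31), with 204, 204 and 201 CPM in the GFP livers and 180.2, 156 and 171 CPM in the Cre livers.

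Of the 3 proton pump genes, Atp6v0d2, the d2 subunit known from osteoclasts and macrophages, was at 3.05, 3.67 and 7.80 CPM in the GFP livers and 7.44, 12.2 and 8.28 CPM in the Cre livers. GFP replicate 3 lay above Cre replicate 1, so the groups overlapped. The log2 fold change was 0.95 (SE 0.37, adjusted p = 0.204). It lost the call without GFP replicate 1 (0.70), GFP replicate 2 (0.78), Cre replicate 2 (0.70) or Cre replicate 3 (1.02), and was 1.46 without GFP replicate 3. Atp6v1a, the catalytic subunit, was at 57.9 ± 5.66 against 54.8 ± 5.30 CPM. Atp6ap1, an accessory subunit, was at 81.9 ± 3.14 against 71.1 ± 1.68 CPM (log2 fold change -0.20, SE 0.09, adjusted p = 0.259). For Atp6ap1 every Cre liver lay below every GFP liver in CPM, while in FPKM the groups overlapped. Tfeb was at 11.1, 12.2 and 10.6 CPM in the GFP livers and 11.5, 10.1 and 14.0 CPM in the Cre livers. Its groups overlapped, with a log2 fold change of 0.07 (SE 0.15, adjusted p = 0.826).

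The 9 members whose promoter holds the core shown above had log2 fold changes from -0.33 to 0.57 with a median of -0.08. By the looser rule 1 of the 9 was higher (Ctsl) and 1 lower (Mcoln1), against 12.0% and 8.41% of all genes tested. Ctss, Ctsk, Laptm5, Atp6v0d2, Npc2, Ctsc, Ctso and Smpd1, the others past that rule, were not among the 9. Only 32 of the 38 members had a promoter to search, so a member outside the 9 can also be one without sequence.

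Isoforms could be compared for few members, because 27 of the 38 were counted on 1 transcript. For 6 members, 12 transcripts each held at least 10% of the counts of the gene. Both Lamp2 transcripts were the ones whose share did not overlap between groups, 2 of 12 (16.7%) against 11.3% of the 5146 transcripts compared in all genes. The shorter transcript, NM_001017959, held 56.9, 56.6 and 55.7% of the Lamp2 counts in the GFP livers and 53.6, 47.0 and 49.4% in the Cre livers. The longer, NM_010685, held 42.0, 42.4 and 43.5% and then 45.6, 52.3 and 49.7%. The shares moved by less in Cre replicate 1 than in the other Cre livers, and an exact two-sided permutation gave p = 0.1 for each, again that floor (0.4 after Benjamini-Hochberg adjustment over the 12). The 2 shares are complements in large part and do not count as separate observations. Lamp2 splice forms differ in the end of the protein that faces the cytosol, and expected counts divide the reads that these forms share by an estimate.

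**Figure D4:**
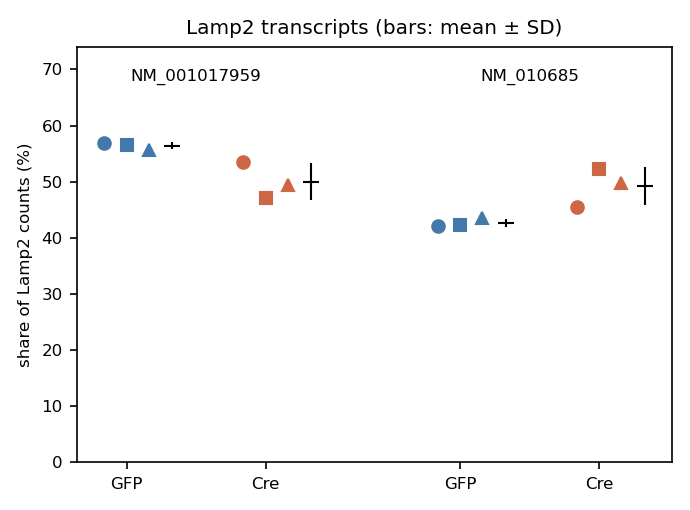
Share of Lamp2 counts (y axis, percent, from 0) assigned to each of 2 RefSeq transcripts in the GFP (blue) and Cre (orange) livers, one shape per replicate, with mean ± SD. The share of NM_001017959 was 56.4 ± 0.644% in GFP and 50 ± 3.31% in Cre livers, with NM_010685 moving from 42.6 ± 0.744% to 49.2 ± 3.39%.

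Other lysosomal genes, 133 in 7 lists, were read from the same fit to place the 38 in context. Of these, 122 were tested with edgeR, and by adjusted p 0 were higher and 1 was lower, against 0.484% and 0.447% of all genes tested. DESeq2, which tested 130 of them, called 4 higher and 3 lower, with 4.81% and 2.63% of all its genes called in these directions. Gga2, an adaptor that sorts mannose 6-phosphate receptors toward endosomes, was at 22.7, 22.0 and 19.2 CPM in the GFP livers and 13.7, 13.2 and 12.2 CPM in the Cre livers. The groups were far apart, with a log2 fold change of -0.71 (SE 0.11, adjusted p = 0.0444 by edgeR). Its adjusted p lay between 0.000355 and 0.245 over the 16 alternative fits. The call was lost with upper quartile normalization (0.0669), with at least 10 counts in every library (0.0561) and in the 3 limma fits on FPKM (0.152 to 0.245). Of the leave-one-out fits, the call remained without Cre replicate 1 (adjusted p = 0.0296), and without GFP replicate 1, 2 or 3 or Cre replicate 2 or 3 the adjusted p lay between 0.0757 and 0.184.

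By the looser rule 10 of the 122 were higher (8.2%, against 12.0% of all genes tested) and 22 lower (18%, against 8.41%), with a median log2 fold change of -0.07. With upper quartile normalization 10 were higher (8.2%, against 14.3% of all genes) and 7 lower (5.74%, against 5.49%). With limma on log2(FPKM + 1), of 120 tested, 14 were higher (11.7%, against 15.5%) and 1 lower (0.833%, against 3.01%). Without Cre replicate 2, 4 were higher (3.28%, against 8.18%) and 8 lower (6.56%, against 5.86%). Other hydrolases had 2 higher and 4 lower of 33, led by Lgmn, the asparagine endopeptidase that processes cathepsins (0.71, SE 0.18, adjusted p = 0.0896). Other membrane proteins had 3 higher and 5 lower of 22, with Cd63 at 1.82 (adjusted p = 0.0882) and Cd68, a macrophage marker, at 1.2 (adjusted p = 0.0962) beside Laptm4b at -0.41 (adjusted p = 0.0881). Other proton pump subunits had 1 higher (Atp6v1b2) and 2 lower (Atp6v0a2 and Atp6v1d) of 17, and the sorting genes 1 higher (Sorl1) and 2 lower (Gga2 and Vps29) of 13. The nutrient-sensing list of TFEB relatives and mTORC1 partners had 2 higher and 4 lower of 17, led by the GTPase gene Rragd, a known TFEB target (1.80, SE 0.37, adjusted p = 0.0620). Of the autophagy genes 0 were higher and 5 lower of 18 (Atg7, Atg5, Optn, Wipi1 and Map1lc3a), against 8.41% of all genes that were lower. The log2 fold change was negative for 17 of the 18, against 51.0% of all genes, but for 9 of the 18 with limma on log2(FPKM + 1), where 28.7% of all genes were negative and 0 of the 18 were lower. With upper quartile normalization 1 was lower, and likewise 1 without Cre replicate 2. The cathepsin inhibitors had 1 higher (Cstb) of 2 tested.

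**Figure D5:**
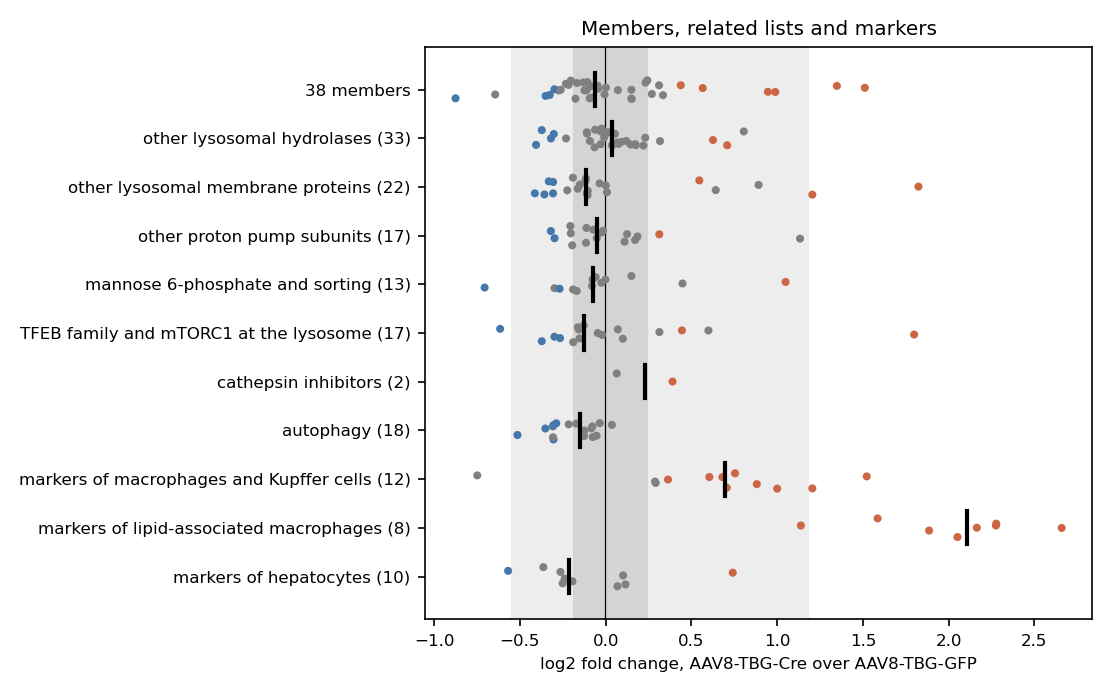
Log2 fold change (x axis, Cre over GFP) of each tested gene in the 38 members, in 7 related lists and in 3 marker lists (number tested in brackets). Black ticks are medians, orange and blue mark genes past the unadjusted threshold, and shading covers the middle 50% and 90% of all genes tested; of the lists drawn, the markers of lipid-associated macrophages have the highest median, 2.11 (markers of duct cells, not drawn, had 2.39).

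Most macrophage markers were higher in the Cre livers. Of 12 markers of macrophages and Kupffer cells, 9 were higher by the looser rule and 0 lower, with Cd5l also past the adjusted p. Clec4f, Timd4 and Marco passed in neither direction. Of the 12 log2 fold changes 11 were positive and 1 was negative, at -0.75. All 8 markers of lipid-associated macrophages were higher, Lpl and Spp1 by adjusted p, with sums of 72.9 to 144 CPM in the GFP livers and 419 to 809.6 CPM in the Cre livers. Cd68 is also in the list of other lysosomal membrane proteins, and Spp1 also marks duct cells. None of these markers was at 0 in any library, and the sums of both lists were highest in Cre replicate 2. Of the 6 higher members 5 also peaked in that liver, while Ctsl was there the lowest of the Cre group. The share of all higher genes that peak there is not given. By the looser rule 1106 of all genes tested were higher without that liver (8.18%), and 1618 with it (12.0%). Hepatocyte markers had 1 higher (Cps1) and 1 lower (Ttr) of 10, at a summed 107655 ± 10858 against 96375 ± 10954 CPM.

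Relative to the summed macrophage markers of the same library, a ratio chosen after the values were seen, Ctss was 7.19, 7.23 and 7.09% in the GFP livers and 7.80, 13.9 and 11.7% in the Cre livers. Laptm5 was 7.78 ± 0.401% against 8.63 ± 1.14%, and Npc2 16.3 ± 2.15% against 12.8 ± 2.15%. The mean of the marker sum itself was 1.77 times as high in the Cre livers, so a gene that differed by less than this has a lower ratio by construction, and these ratios are given as a description without a test.

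Markers of other cell types were higher in part. Of 9 cholangiocyte markers tested, 9 were higher by the looser rule (Sox9, Cldn4 and Spp1 by adjusted p), and their sums were 73.2 to 129.7 against 311 to 584 CPM, with 1 marker at 0 in some library. Stellate cell and fibroblast markers had 5 higher and 0 lower of 10, with sums of 248 to 378 against 487 to 1026 CPM. Neutrophil markers had 3 higher and 1 lower of 6, T and NK cell markers 1 and 1 of 3, B cell markers 1 and 0 of 2, and endothelial markers 0 and 1 (Stab2) of 8. The part of these cells in the lysosomal values was not tested.

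Within libraries of one name form the directions of the 10 members past the looser rule were the same as over all livers. Where the Cre livers lie all above or all below the GFP livers, any such split must give this. Only Mcoln1 and Atp6v0d2, whose groups overlap, could have differed. The log2 ratio of means in the short-named libraries (2 GFP, 1 Cre) and the long-named libraries (1 GFP, 2 Cre) was 0.68 and 1.91 for Ctss, 0.44 and 1.36 for Laptm5, and 0.97 and 1.28 for Ctsk. It was 0.64 and 0.42 for Ctsl, 0.52 and 0.32 for Npc2, and 1.15 and 0.39 for Atp6v0d2. For the lower members it was -0.56 and -1.24 for Ctsc, -0.24 and -0.43 for Ctso, -0.27 and -0.25 for Smpd1, and -0.29 and -0.17 for Mcoln1. Ctss, Laptm5 and Ctsc thus differed more among the long-named libraries. For Ctss and Laptm5 these include the highest Cre liver, replicate 2, and the lowest GFP liver, replicate 3. For Ctsc they include the highest GFP liver, replicate 3 (140.5 CPM), while Cre replicates 2 and 3 were alike (59.2 and 59.3 CPM). These ratios were not tested, since each form has 1 library in a group.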

How the data were processed

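Liver RNA was sequenced in bulk, and the files hold 3 livers per vector. Per liver, the authors deposited expected counts of RefSeq transcripts, each an estimate that divides shared reads and need not be whole, with deposited FPKM values per transcript and gene. The submitters' processing notes name HISAT2, Bowtie2, RSEM and build mm10 without versions, whereas the study's methods name STAR, HTSeq and DESeq2. Use of strand in counting is not given in the sources used here. Summing by NCBI gene ID gave gene counts, which were then rounded. The 1 transcript per library without a gene ID (at most 0.000338% of counts) was left out. Library totals were 20356392 to 21010474 counts, so counting error is small except for Ctsk, Ctse and Atp6v0d2.

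Vectors were compared in edgeR 4.0.16 (R 4.3.3) by its quasi-likelihood test, with TMM normalization, filterByExpr, the vector as only factor and Benjamini-Hochberg adjustment over 13430 genes. Calls used an adjusted p under 0.05, or an unadjusted p under 0.05 with a fold change of at least 1.2. Each SE given for edgeR is the size of the log2 fold change divided by the square root of the F statistic. Transcript shares and sums were compared with exact two-sided permutation tests. Alternatives were DESeq2 1.42.0, other scalings and filters, limma 3.58.1 on log2(FPKM + 1) or log2(FPKM + 0.1), a replicate block, the name form as a covariate, a fold of 1.5 and leaving out each liver. The steps were tested on simulated counts. Values per library were given for members past either rule or with a log2 fold change of at least 0.5 in size, and related genes were named by their p-values within each list or an adjusted p under 0.05. Members and lists were chosen with earlier results of these data known. Symbols Stfa1, Stfa2, Stfa3, Trac and Ighm were not matched.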

Additional observations from a re-analysis of the deposited data

How the results depend on the processing

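Of the 10 members past the looser rule, Ctss, Ctsl, Npc2, Laptm5 and Ctsc stayed past it in all 16 alternative fits, and all 10 kept their direction. By adjusted p, DESeq2 called 4 members higher and 2 lower, with 4.81% and 2.63% of its genes called. The fit without a filter on low counts called 1 higher (Ctss) and 1 lower (Ctsc), with 235 and 137 of 18418 genes called. The fit with the name form as a covariate called 1 lower (Ctsc), with 120 of 13430 genes called lower. Leaving out one liver gave 0 to 2 higher and 0 to 1 lower by adjusted p (Ctss, Laptm5 and Ctsc, without Cre replicate 1). Over all 13662 genes tested without Cre replicate 1, 572 were higher and 352 lower by adjusted p. By the looser rule these fits gave 2 to 6 lower members. There were 2 without GFP replicate 1 (5.26%, against 5.36% of all genes) and 6 without Cre replicate 1 (15.8%, against 12.5%). By the looser rule, 2 were lower with upper quartile normalization (5.26%, against 5.49% of all genes) and 2 with the name form as a covariate (5.26%, against 8.82%). With a fold of 1.5, 1 was lower (Ctsc). No share of all genes is given at that fold, so this count is no result about the set. Limma called 10 higher on log2(FPKM + 1) and 10 on log2(FPKM + 0.1) (26.3% each, against 15.5% and 16.4% of all genes). It called 1 lower in these and in the fit without a filter on FPKM (2.63%, against 3.01%, 3.10% and 1.97%). The median of the members was 0.0020 with upper quartile normalization, 0.10 on either FPKM scale (0.097 with a pseudocount of 1, filter or not), 0.034 within the short-named and -0.13 within the long-named libraries. The median of all genes was 0.11 on log2(FPKM + 1).

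Members that passed no rule and lay near 0 changed sign. These were Man2b1 (-0.0065 with DESeq2, -0.010 without a count filter), Psap (-0.0017 with the name form), Lipa (0.011 with at least 10 counts in every library), and Hexa (0.019), Gusb (0.022) and Lipa (0.058) with upper quartile normalization. On log2(FPKM + 1), with the same values without a filter, they were Ctsh (0.081), Ctsa (0.063), Tpp1 (0.079), Hexa (0.13), Gusb (0.11), Gaa (0.039), Lipa (0.16), Npc1 (0.047), Laptm4a (0.059) and Atp6v1a (0.083). On log2(FPKM + 0.1) the values were 0.081, 0.064, 0.081, 0.13, 0.12, 0.040, 0.16, 0.048, 0.060 and 0.088 for Ctsh, Ctsa, Tpp1, Hexa, Gusb, Gaa, Lipa, Npc1, Laptm4a and Atp6v1a. Over the fits that each leave out one liver, Gusb ranged from -0.13 to 0.056, Man2b1 from -0.047 to 0.036 and Lipa from -0.11 to 0.098. In the same fits Ctsa ranged from -0.21 to 0.040, Hexa from -0.15 to 0.080, Gaa from -0.27 to 0.018 and Tfeb from -0.062 to 0.17. The cause was not tested.

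Replicate numbers did not pair the livers (correlations of same-numbered deviations 0.0092, -0.26 and 0.21). A fit with the replicate number as a block gave 6 higher and 4 lower members, a median of -0.064 and no changed call among members, while the adjusted p of Gga2 became 0.109. Over all genes it called 1 higher and 6 lower by adjusted p, where the fit without it called 65 and 60. With 3 livers per group, single-gene permutation tests cannot go below 0.1, and Ctse could not be tested with at least 10 counts in every library.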
